A study of Mus musculus with 4 samples.

Results

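The endocannabinoid system is described here through 8 genes, chosen by symbol: the cannabinoid receptor gene Cnr1 and 7 genes of endocannabinoid synthesis and breakdown (Dagla, Daglb, Mgll, Abhd6, Abhd12, Napepld and Faah). All 8 were among the 32531 gene names counted in each library, and all 8 passed the filter on low counts, which left 16600 genes tested. Libraries came from the cerebral cortex of adult mice with the Cbln1-TRAP transgene (line NIDA030), in which the ribosomal protein Rpl10a is fused to EGFP under regulatory sequence of Cbln1. Of the 4 libraries, 2 held RNA bound to ribosomes that anti-EGFP antibodies had captured (IP 2 and IP 4), and 2 held total RNA of the cortex (input 2 and input 4). Both groups carried the transgene, and no untagged mice were analysed here. The labels give neither the sex nor the number of the animals. The p-values therefore set the difference between groups only against the spread of these libraries, which may in part be technical.

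Endocannabinoids are lipid messengers that neurons make on demand from membrane lipids. In cortex, 2-arachidonoylglycerol (2-AG) is released mainly from postsynaptic dendrites, travels backwards across the synapse and activates the CB1 receptor on axon terminals, where transmitter release is then lowered. Diacylglycerol lipases make 2-AG, and monoacylglycerol lipase and the hydrolases Abhd6 and Abhd12 break it down. Anandamide, the other main endocannabinoid, is formed by routes that include Napepld and is degraded by Faah. The CB1 receptor is known to be especially abundant on Cck interneurons of cortex and present at lower density on glutamatergic terminals. A comparison of IP with input asks which of these mRNAs were over- or under-represented on the ribosomes of the tagged cells, relative to cortex as a whole.

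Each library held 39750468 to 47567384 counts assigned to genes. Cbln1 checked the labels: it stood at 99.3 and 68.6 CPM (counts scaled to TMM-adjusted library size) in IP 2 and IP 4 and at 11.9 and 8.55 CPM in input 2 and input 4. Rpl10a, the gene of the tagged protein, stood at 3.10 and 2.91 CPM in IP and 6.82 and 7.14 CPM in input, although reads shared with its pseudogene copies are not in such counts. Markers of neurons in general were more abundant in IP: 10 of 12 rose and 1 fell (Map2, log2 fold change -1.63). Their summed level was 43239 and 40370 CPM in IP and 18376 and 19170 CPM in input. Snap25 alone made up most of that sum, with 27036.6 and 25452.5 CPM in IP and 10526.9 and 10907.9 CPM in input. By the sample descriptions, lane 1 held the IP and lane 2 the input libraries, so a lane effect and a group effect cannot be told apart. Ambiguous reads made up 1.54% of records in each IP library and 5.07% and 5.09% in input.

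Of the 8 genes, 3 rose in IP (Daglb, Abhd6 and Faah), 0 fell and 5 were not called (quasi-likelihood test of edgeR, adjusted p under 0.05 by Benjamini-Hochberg over all genes tested). Daglb, the second diacylglycerol lipase, was 1.59-fold higher, Abhd6 1.37-fold and Faah 1.33-fold. The genes of the CB1 receptor, of the main lipases of synthesis and breakdown (Dagla and Mgll), of Abhd12 and of Napepld had fold changes from 0.887 to 1.06. Neuronal markers in general moved in the direction of the 3 genes that rose, and their part in those values was not tested. Among all genes tested 23.4% were called higher and 22.4% lower (45.8% in all), and among the 8684 genes with a mean of 10 to 500 CPM, the range that holds all 8 members, 36.9% were called higher and 20.4% lower. The members called higher (3 of 8) were thus near the share among genes of like abundance, and the 0 of 8 called lower were under it. Their median log2 fold change was 0.07, against -0.04 for all genes tested and 0.14 for genes of 10 to 500 CPM. With library sizes alone, which moved the median of all genes from -0.04 to -0.29, Daglb was the 1 member called higher, 3 were called lower (Cnr1, Mgll and Napepld) and the members' median was -0.18.

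**Figure D1:**
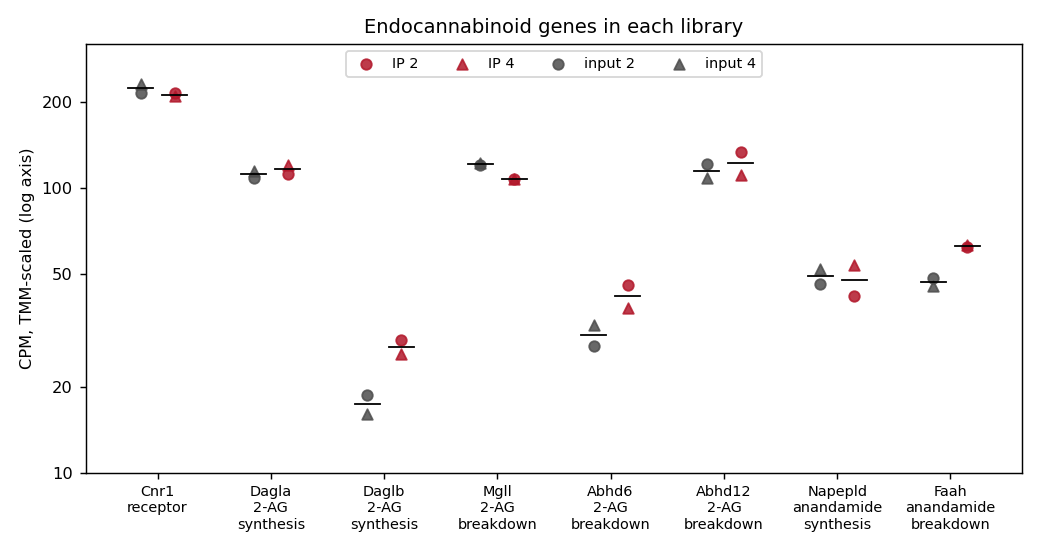
Abundance of the 8 genes in each library, in CPM on a log axis; red symbols are IP libraries, grey symbols input libraries, circles number 2, triangles number 4, and bars the mean of each group. The IP symbols of Daglb, Abhd6 and Faah lie above both input symbols, those of Cnr1 and Mgll lie slightly below, and those of Dagla, Abhd12 and Napepld overlap with input.

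The enzymes that handle 2-AG were chosen for that function, and they share a feature that is not independent of it. Each is a serine hydrolase, and its coding sequence encodes the catalytic serine within the order glycine, any residue, serine, any residue, glycine. The stretches are shown because 5 mRNAs with the same catalytic element, read 5′ to 3′ on the coding strand, gave 2 genes that rose in IP (Daglb and Abhd6) and 3 that did not pass; capitals mark the 5 codons of that element, with 15 bases on each side, from the GENCODE vM21 transcript with the longest coding sequence (GRCm38).
Dagla: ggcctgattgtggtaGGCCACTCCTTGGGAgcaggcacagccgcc
Daglb: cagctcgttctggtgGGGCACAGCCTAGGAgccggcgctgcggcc
Mgll: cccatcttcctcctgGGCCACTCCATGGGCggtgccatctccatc
Abhd6: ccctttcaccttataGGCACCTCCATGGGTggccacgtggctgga
Abhd12: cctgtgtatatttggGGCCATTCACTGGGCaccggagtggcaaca
The serine is codon 472 of Dagla (chr19:10254884-10254928, minus strand) and codon 443 of Daglb (chr5:143494548-143494592, plus strand). It is codon 122 of Mgll (chr6:88808121-88809353, plus strand, across an intron), codon 148 of Abhd6 (chr14:8042724-8042768, plus strand) and codon 246 of Abhd12 (chr2:150838769-150839754, minus strand, across an intron). The element also occurs elsewhere in the coding sequences of Dagla, Mgll and Abhd12. It occurs in that of Faah too, an amidase with another catalytic arrangement, and 18.5% of 21407 coding genes encode it at least once, so a match alone does not mark a lipase. The coding sequences of Cnr1 and Napepld, a metal-dependent phospholipase, hold 0 matches.

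Cnr1 (ENSMUSG00000044288.6, chromosome 4, 33924593 to 33948831, plus strand) encodes the CB1 receptor, a receptor coupled to inhibitory G proteins. Its level was 214 and 210 CPM in IP 2 and IP 4 and 215 and 232 CPM in input 2 and input 4, from 8153, 9099, 9790 and 10053 counts. Both IP libraries lay below both input libraries, but the gap to input 2 was less than 1 CPM. The log2 fold change was -0.07 (SE 0.09, 95% interval -0.27 to 0.12, edgeR adjusted p = 0.531). The interval leaves room for a fold change between 0.832 and 1.08 under this scaling. Scaled by library sizes alone, Cnr1 was called lower, at -0.33 (SE 0.09, edgeR adjusted p = 0.00434).

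Cnr1 was the most abundant of the 8 genes in CPM, above 95.04% of all genes tested. The annotation gives it 2 protein-coding transcripts, and the longer holds 3796 bases of 3′ UTR after 473 codons. The receptor is known to be densest on Cck interneurons, whose markers were listed together with those of Vip interneurons. Markers of this joint list were mixed: of 11 tested, 2 rose and 3 fell, with a median of -0.31. Among all genes tested 23.4% were called higher and 22.4% lower. Of the 2 that rose, Calb2 overlapped between the groups (3.71 and 6.57 CPM in IP, 3.85 and 1.99 CPM in input). Sncg, also listed, was too low to be tested (4 and 10 counts in IP, 8 and 8 in input). Cck itself, which many glutamatergic neurons of cortex also express, rose by 0.54 on the log2 scale (SE 0.09, edgeR adjusted p = 5.39e-05) and made up most of the list's summed level of 1160 and 1056 CPM in IP and 796 and 795 CPM in input. Of the 10 general GABAergic markers 1 rose and 4 fell (median -0.19), and of the 10 glutamatergic markers 7 rose and 1 fell (median 0.35). Scaled by library sizes alone, the counts higher and lower were 1 and 5 for the Cck and Vip markers (median -0.57), 0 and 5 for the GABAergic markers (median -0.45) and 3 and 1 for the glutamatergic markers (median 0.09). In bulk RNA, fewer cells of a type and less RNA per cell cannot be told apart, and the part of these cell classes in the value for Cnr1 was not tested.

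Of the diacylglycerol lipases, which make 2-AG from diacylglycerol, Daglb rose and Dagla did not pass; their fold changes were not tested against each other. Dagla (ENSMUSG00000035735.10, chromosome 19, 10245265 to 10304877, minus strand), the isoform known to supply most synaptic 2-AG in brain, stood at 112 and 121 CPM in IP 2 and IP 4 and at 109 and 115 CPM in input 2 and input 4. The libraries of the groups overlapped. Its log2 fold change was 0.06 (SE 0.10, 95% interval -0.15 to 0.26, edgeR adjusted p = 0.657). The sign turned to -0.20 with library sizes alone and to -0.16 with offsets for transcript length and GC content, without passing the threshold in either.

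Daglb (ENSMUSG00000039206.13, chromosome 5, 143464584 to 143505942, plus strand), known for its role in microglia and macrophages among other cells, was the least abundant member. It stood at 29.2 and 26.2 CPM in IP 2 and IP 4 and at 18.7 and 16.1 CPM in input 2 and input 4, from 1110, 1132, 850 and 695 counts. Both IP libraries lay well above both input libraries. The log2 fold change was 0.67 (SE 0.14, 95% interval 0.38 to 0.96, edgeR adjusted p = 0.000666), higher than that of 87.2% of genes tested. Daglb passed the threshold under every alternative run, except the test against a log2 fold change of 1.

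A neighbour limits the value of Daglb. Exons of Rac1, a gene of the actin cytoskeleton on the opposite strand, cover 24.1% of its exonic bases, and the strand setting of the counting is not given in the sources used here. Rac1 itself stood at 756 and 749 CPM in IP and 595 and 613 CPM in input. It rose by 0.32 on the log2 scale (SE 0.08, edgeR adjusted p = 0.00455), which is less than that of Daglb. Reads ambiguous between 2 genes did not enter gene counts. Such reads were 1.54% of records in each IP library and 5.07% and 5.09% in input. Neither the Daglb reads lost in the shared bases nor the part of Rac1 reads in the Daglb counts was tested. Of 10 microglial markers 1 rose (Csf1r, 0.75) and 2 fell (P2ry12, -0.55, and Tmem119, -0.98). Among all genes tested 23.4% were called higher and 22.4% lower. The markers' median log2 fold change was 0.04 (-0.22 with library sizes alone), and their summed level was 71.9 and 77.5 CPM in IP and 77.2 and 65.5 CPM in input. Exons of Hmgxb3, on the opposite strand, cover 15.1% of the exonic bases of Csf1r. The part of the microglial markers in the value for Daglb was not tested.

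Mgll (ENSMUSG00000033174.17, chromosome 6, 88724412 to 88828360, plus strand) encodes monoacylglycerol lipase, which is known to carry out most 2-AG hydrolysis in brain. It stood at 107 and 108 CPM in IP 2 and IP 4 and at 120 and 122 CPM in input 2 and input 4. Replicates lay within 2 CPM of each other in each group, and both IP libraries were below both input libraries. The log2 fold change was -0.17 (SE 0.09, 95% interval -0.37 to 0.02, edgeR adjusted p = 0.144).

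The call on Mgll turned on the processing. Mgll was called lower with library sizes alone (-0.43, edgeR adjusted p = 0.000685), with offsets for length and GC content (-0.36, adjusted p = 0.00353) and, narrowly, with the stricter filter on low counts (-0.23, adjusted p = 0.0448). Its direction was negative under every alternative run. An antisense gene covers 3.29% of its exonic bases. Mgll is also expressed by astrocytes and oligodendrocytes: of 10 astrocyte markers 4 rose and 4 fell (median -0.02), with summed levels of 3731 and 4055 CPM in IP and 4046 and 4038 CPM in input. Of 10 oligodendrocyte markers 2 rose and 6 fell (median -0.44), with summed levels of 1445 and 1474 CPM in IP and 1917 and 1834 CPM in input. Scaled by library sizes alone, the counts higher and lower were 4 and 5 for astrocytes (median -0.28) and 2 and 8 for oligodendrocytes (median -0.70). Among all genes tested 23.4% were called higher and 22.4% lower with TMM scaling. The part of these glial markers in the value for Mgll was not tested.

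Abhd6 (ENSMUSG00000025277.14, chromosome 14, 8002902 to 8056763, plus strand) encodes a membrane hydrolase that is known to degrade 2-AG in postsynaptic neurons. Its level was 45.7 and 38.0 CPM in IP 2 and IP 4 and 27.9 and 32.9 CPM in input 2 and input 4, from 1736, 1643, 1270 and 1426 counts. The groups did not overlap, though the replicates of each were spread. Abhd6 rose by 0.46 on the log2 scale (SE 0.13, 95% interval 0.19 to 0.73, edgeR adjusted p = 0.00740). Abhd6 was no longer called when IP 2 was left out (0.34, adjusted p = 0.0678), when input 2 was left out (0.35, adjusted p = 0.0784) and with library sizes alone (0.20, adjusted p = 0.211).

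Abhd12 (ENSMUSG00000032046.15, chromosome 2, 150832493 to 150904741, minus strand) encodes a hydrolase of the endoplasmic reticulum best known as a lysophosphatidylserine lipase, which also accepts 2-AG. It stood at 134 and 111 CPM in IP 2 and IP 4 and at 121 and 109 CPM in input 2 and input 4. The groups overlapped, and number 2 was above number 4 in both. Its log2 fold change was 0.09 (SE 0.11, 95% interval -0.13 to 0.31, edgeR adjusted p = 0.516), and the sign was negative with library sizes alone, with length and GC offsets and without IP 2.

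Of the anandamide genes, Faah rose and Napepld did not pass. Napepld (ENSMUSG00000044968.16, chromosome 5, 21662901 to 21701396, minus strand) encodes a phospholipase that releases anandamide and related N-acylethanolamines from their membrane precursors. It stood at 41.7 and 53.6 CPM in IP 2 and IP 4 and at 46.1 and 51.9 CPM in input 2 and input 4. The IP libraries lay on either side of the input libraries. The log2 fold change was -0.04 (SE 0.13, 95% interval -0.30 to 0.23, edgeR adjusted p = 0.822), and it was positive without IP 2 (0.15) and without input 4 (0.06). With library sizes alone Napepld was just called lower (-0.30, adjusted p = 0.0495).

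Faah (ENSMUSG00000034171.13, chromosome 4, 115967145 to 116017926, minus strand) encodes fatty acid amide hydrolase, the main enzyme of anandamide breakdown and a mostly neuronal, postsynaptic protein in cortex. It stood at 61.8 and 62.9 CPM in IP 2 and IP 4 and at 48.1 and 45.3 CPM in input 2 and input 4. Replicates lay close together and the groups were clearly apart. Faah rose by 0.42 on the log2 scale (SE 0.11, 95% interval 0.19 to 0.64, edgeR adjusted p = 0.00365). It stayed past the threshold without any 1 library, but not with library sizes alone (0.16, adjusted p = 0.243).

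In all, the IP and input libraries did not overlap for 5 of the 8 genes, 3 of them higher and 2 lower in IP. Among all genes tested the groups did not overlap in 73.0% (35.3% higher and 37.8% lower), so the members' share was no larger than the background.

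**Figure D2:**
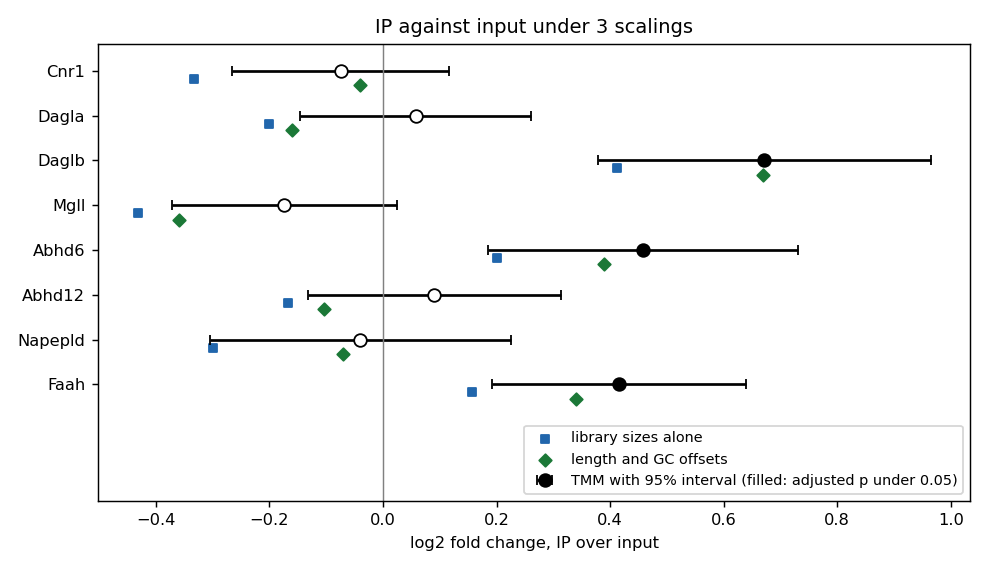
Log2 fold change of IP over input for the 8 genes: circles give the TMM-scaled edgeR fit with its 95% interval (filled where adjusted p was under 0.05), squares the fit with library sizes alone, and diamonds the fit with length and GC offsets. Daglb, Abhd6 and Faah lie to the right of 0 under these 3 scalings and Cnr1, Mgll and Napepld to the left, whereas Dagla and Abhd12 cross 0. The TMM intervals of Cnr1, Mgll and Napepld include 0.

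Relative levels within a library do not depend on how libraries are scaled, because both genes of a pair were counted in the same library. The share of a gene is given of the pair's counts per kilobase of annotated exon, with exact Clopper-Pearson 95% intervals that cover counting error only. Daglb made up 13.6% (12.8 to 14.4) and 11.5% (10.9 to 12.2) of diacylglycerol lipase counts per kilobase in IP 2 and IP 4, and 9.37% (8.757 to 10.004) and 7.76% (7.20 to 8.35) in input 2 and input 4. Dagla was therefore the predominant lipase in every library, and the Daglb share was higher in both IP libraries, by 3.99 percentage points on average. With coding length in place of exon length the Daglb share was 27.1% ± 2.61 in IP and 19.5% ± 2.29 in input (SD, n = 2 each).

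Among the 2-AG hydrolases, Mgll took a smaller part in both IP libraries than in either input library. Abhd6 made up 47.8% and 43.1% of the Abhd6 and Mgll counts per kilobase in IP 2 and IP 4, and 33.3% and 36.7% in input 2 and input 4. Abhd12 made up 69.2% and 65.0% of the Abhd12 and Mgll counts in IP, and 64.4% and 61.6% in input. In both pairs the lowest IP library lay above the highest input library, for Abhd12 by less than 1 percentage point and within the counting intervals of those libraries (64.1 to 65.9 and 63.6 to 65.3). Abhd6 relative to Abhd12 was 29.0% in both IP libraries and 21.6% and 26.6% in input. The shares depend on the length used. With coding length Abhd12 averaged 48.6% of the Abhd12 and Mgll counts in IP and 44.1% in input. Abhd6 then averaged 27.7% of the Abhd6 and Mgll counts in IP and 19.8% in input.

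Set against the main enzyme of synthesis, Mgll took 52.1% and 50.3% of the Mgll and Dagla counts per kilobase in IP 2 and IP 4, and 55.6% and 54.6% in input 2 and input 4. Both IP values were lower, with a mean difference of -3.97 points. With coding length Mgll averaged 74.5% of this pair in IP and 77.4% in input. For anandamide, Faah took 42.8% and 37.2% of the Faah and Napepld counts per kilobase in IP and 34.5% and 30.6% in input. Again the groups did not overlap. With 2 libraries in each group an exact two-sided permutation test cannot give a p under 0.333, so none of the 6 pairs was tested. The 6 pairs share genes and are not independent of each other.

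**Figure D3:**
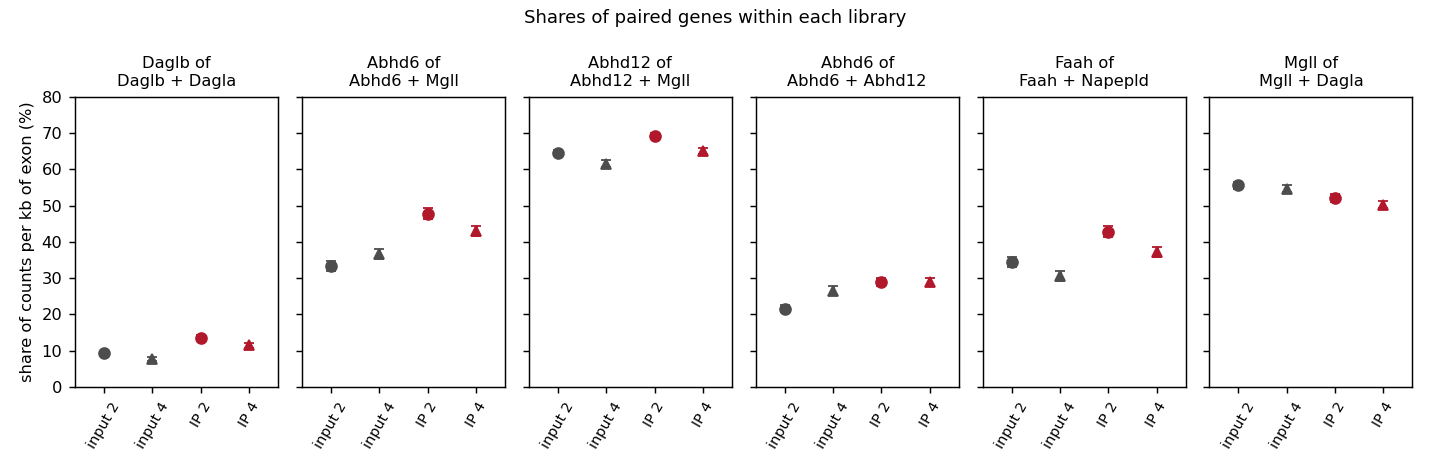
Share of 1 gene in the counts per kilobase of exon of a pair of genes, in percent, for each library (red IP, grey input) with exact 95% counting intervals. By exon length Abhd6 against Mgll shows the widest gap between IP and input, 45.4% against 35.0% on average. By coding length (not drawn) that gap, 7.87 points, was slightly under the 7.91 points of Faah against Napepld. Mgll against Dagla is the pair whose named gene is lower in IP.

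Levels of different genes can be compared only per length. Per kilobase of exon in input, the order was Abhd12 (40.7 ± 3.18 CPM per kilobase), Cnr1 (34.7 ± 1.85), Mgll (23.9 ± 0.227), Dagla (19.4 ± 0.739), Abhd6 (12.9, from 11.8 and 13.9), Napepld (12.4 ± 1.04), Faah (5.96 ± 0.257) and Daglb (1.82 ± 0.195) (SD, n = 2 each). The IP libraries gave the same order, from 43.4 ± 5.61 for Abhd12 to 2.89 ± 0.223 for Daglb. Abhd6 and Napepld were neighbours whose input libraries overlapped, whereas in IP 2 and IP 4 Abhd6 (19.3 and 16.1) lay above Napepld (10.53 and 13.5). Mgll (21.1 and 21.2), Dagla (19.4 and 21.0) and Abhd6 (19.3 and 16.1) kept the same order in IP 2 and IP 4. However, Dagla and Abhd6 lay close together in IP 2, as did Mgll and Dagla in IP 4. The order depends on the gene models: per kilobase of coding sequence Cnr1 came first, at 150 ± 2.02 in IP and 158 ± 8.41 in input, and the group means of Mgll came before those of Abhd12, although in IP 2 Abhd12 (112 CPM per kilobase) lay above Mgll (107.9). Daglb was lowest by both lengths.

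The 8 mRNAs shared little in structure. Exon unions ran from 2.37 kilobases for Abhd6 to 9.57 for Daglb, and GC content from 44.9% for Cnr1 to 58.8% for Dagla. The number of exons of the coding transcript ran from 2 in Cnr1 to 20 in Dagla. The 3 genes that rose had exon unions of 2.37 (Abhd6), 7.83 (Faah) and 9.57 kilobases (Daglb), so they did not lie at 1 end of the range. The 3 members with the highest GC content (Dagla, 58.8%, Mgll, 55.3%, and Abhd12, 55.0%) were those whose log2 fold change moved down most with length and GC offsets, to -0.16, -0.36 and -0.10. The offsets are set by length and GC content alone, so such a shift is built into them and is no separate finding about the members.

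The wider pathway was followed in lists of other genes. Receptors other than CB1 were scarce. Of 8 genes listed, 4 were too low to be tested, among them Cnr2, the receptor of immune cells, with 1 and 0 counts in the IP libraries and 5 and 14 in input, and Trpv1, the capsaicin channel that anandamide also opens, with 14 and 7 counts in IP and 3 and 1 in input. Of the 4 tested, 0 rose and 2 fell (median -0.72). The nuclear receptor gene Pparg fell by 0.90 on the log2 scale (SE 0.21, edgeR adjusted p = 0.00172), and Ppara by 0.63 (SE 0.22, adjusted p = 0.0258), a call that did not hold when IP 4 (adjusted p = 0.0857) or input 2 was left out (adjusted p = 0.165), nor under DESeq2 (adjusted p = 0.0587).

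Proteins that bind or regulate the CB1 receptor moved in both directions. Of 7 tested, 4 rose and 1 fell (median 0.53). Cnrip1, which binds the tail of the receptor, stood at 132 and 122 CPM in IP and 86.5 and 89.6 CPM in input and rose by 0.53 (SE 0.10, edgeR adjusted p = 0.000214). Arrb2, a beta-arrestin, rose by 1.13 (SE 0.15), Wasf1, a component of the actin-regulating WAVE complex, by 0.69 (SE 0.09), and Gprasp1, a sorting protein that sends internalised receptors to lysosomes, by 0.67 (SE 0.10). Adrbk2, a kinase that phosphorylates activated receptors, fell by 0.68 (SE 0.11), and Sgip1, an inhibitor of CB1 internalisation, did not pass (-0.19, adjusted p = 0.0818). With library sizes alone Sgip1 was called lower (-0.45, edgeR adjusted p = 0.00019). Under that scaling 4 of the 7 were higher and 2 lower (median 0.27).

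Other enzymes of the pathway, where called with TMM scaling, were higher in IP. Among genes of 10 to 500 CPM, 36.9% were called higher and 20.4% lower. Of 7 further genes of N-acylethanolamine synthesis 1 rose and 0 fell: Gdpd1, a lysophospholipase D, which averaged 155 ± 3.90 CPM in IP against 77.6 ± 4.82 CPM in input, rose by 0.996 (SE 0.10, edgeR adjusted p = 1.59e-07). That list's median of 0.24 turned to -0.02 with library sizes alone. Under that scaling 1 gene of the list was called higher and 1 lower (Hrasls, -0.47, edgeR adjusted p = 0.00473). Of 7 further genes of breakdown or oxidation 4 rose and 0 fell (median 0.37). They were Ddhd2 (0.41, SE 0.10), a lipase, Ppt1 (0.37, SE 0.10), a lysosomal thioesterase, Asah1 (0.44, SE 0.13), acid ceramidase, and Pnpla6 (0.46, SE 0.17), a lysophospholipase. With library sizes alone 0 of the 7 were called in either direction. Asah1 was not called without IP 2 (adjusted p = 0.0927), and Pnpla6 was not called without IP 2, input 2 or input 4 (adjusted p = 0.275, 0.0836 and 0.0565). Ptgs2, the cyclooxygenase that oxidises endocannabinoids, did not pass (0.33, adjusted p = 0.0726).

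Of 5 intracellular carriers of anandamide 2 rose and 1 fell (median 0.34). Hspa8, a heat shock cognate chaperone, averaged 397 ± 17.1 CPM in IP against 158 ± 7.29 CPM in input and rose by 1.33 (SE 0.09, edgeR adjusted p = 1.91e-09). Fabp5, a fatty acid binding protein of neurons and glia, rose by 0.56 (SE 0.15), and Fabp7, a fatty acid binding protein of astrocytes, fell by 0.58 (SE 0.13). The call on Fabp5 was lost without input 4 (adjusted p = 0.0717) and with library sizes alone (0.30, adjusted p = 0.112), and that on Fabp7 without input 2 (adjusted p = 0.0963). Of the 5 carriers 1 was called higher and 1 lower with library sizes alone (median 0.08).

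Of 13 genes that trigger 2-AG synthesis, from receptors coupled to Gq to phospholipase C beta and the Homer scaffolds, 5 rose and 3 fell. Their median of 0.10 turned to -0.16 with library sizes alone. Plcb1, the main phospholipase C beta of cortical pyramidal neurons, averaged 540 ± 42.6 CPM in IP against 319 ± 43.0 CPM in input and rose by 0.76 (SE 0.10, edgeR adjusted p = 6.34e-06), and Plcb3 rose by 0.82 (SE 0.21). Homer1 and Homer2, which tie group I metabotropic receptors to postsynaptic stores, fell by 0.56 (SE 0.11) and 0.83 (SE 0.10). Grm5, the metabotropic receptor best known for triggering 2-AG release, did not pass (0.19, adjusted p = 0.115).

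Of 15 presynaptic effectors of the CB1 receptor 7 rose and 2 fell (median 0.32), and with library sizes alone 3 were called higher and 5 lower (median 0.06). Gnao1 and Gnai1, G protein alpha subunits of the class to which CB1 couples, rose by 0.51 (SE 0.08) and 0.63 (SE 0.09). Gnao1 averaged 2087 ± 20.7 CPM in IP against 1462 ± 58.1 CPM in input. Prkaca, the catalytic subunit of protein kinase A, rose by 0.998 (SE 0.10, edgeR adjusted p = 1.33e-07), and Kcnj6, a potassium channel opened by G proteins, fell by 0.68 (SE 0.12). For each of these lists the background was 23.4% called higher and 22.4% lower over all genes tested, and 36.9% higher and 20.4% lower among genes of 10 to 500 CPM.

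**Figure D4:**
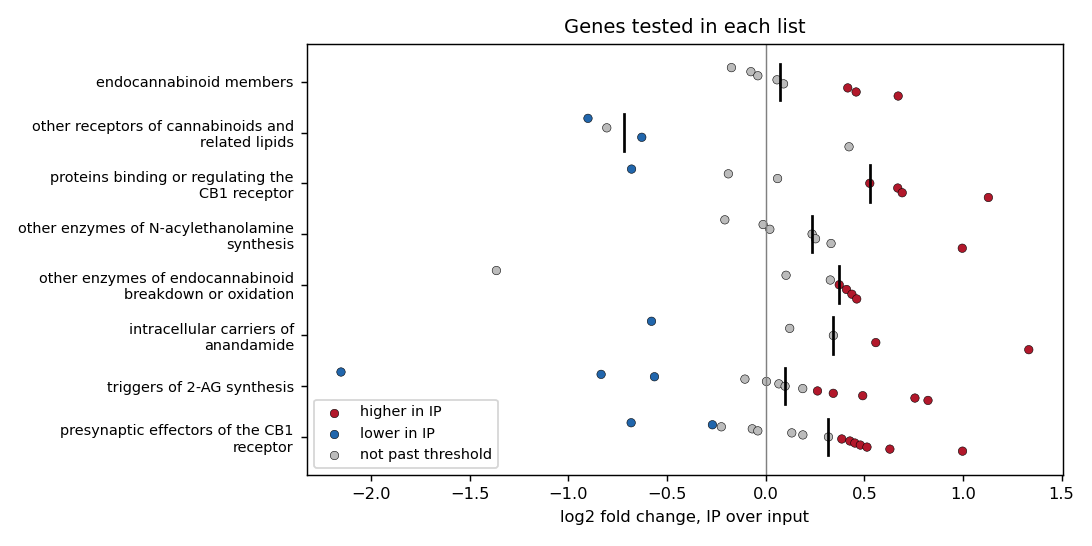
Log2 fold change of IP over input for every tested gene of the 8 members and of 7 lists of the wider pathway; red points were called higher, blue points lower, grey points did not pass, and vertical bars mark each list's median. The medians run from -0.72 for the other receptors to 0.53 for CB1-binding proteins, and the 8 members have a median of 0.07.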

How the data were processed

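RNA of captured ribosomes (IP) and of whole cortex (input) was measured by sequencing in 2 libraries each. The submitters' processing notes name STAR 2.0.0e, HTSeq and mm10; which annotation, strand setting and kit were used is not given in the sources used here. Deposited values are raw read counts per gene symbol, not normalised, and 1.54% to 5.09% of records were ambiguous and 30.7% to 38.0% not uniquely aligned, so neither entered gene counts. Lines naming no gene were left out; the line named unknown held 0 to 2 counts.

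Counts were tested in edgeR 4.0.16 (R 4.3.3) with TMM factors of 0.909 to 1.10, filterByExpr (at least 10 counts, in total 15), a design of group only and two-sided quasi-likelihood tests on 16600 of 21923 genes with counts. A floor of 3 counts was 0.0660 to 0.0789 CPM. Replicates differed by far more than sampling noise (chi-square per degree of freedom 21.2 in IP and 14.5 in input). The error of each gene was moderated towards that of other genes (2 residual and a median of 16.8 prior degrees of freedom). Standard errors of the main fit were derived from the fold change and the F statistic. The 95% intervals used the moderated degrees of freedom, so they do not rest on a gene's own replicates alone. Lengths, GC content, overlaps and coding sequences came from GENCODE vM21 on GRCm38 (mm10), matched by symbol for 14616 of the genes tested.

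The members and lists were chosen with earlier results of these data known. Named genes were the 8 members, Cbln1 and Rpl10a, up to 4 called genes of each pathway list with at least 5 CPM and the largest fold changes, and, of marker lists, the most abundant and the most changed; Rac1, Cnrip1, Sgip1, Ptgs2, Grm5, Cnr2, Trpv1, P2ry12 and Tmem119 were added after their values were seen. Map2 was also added after its value was seen. Of the marker genes only those that bear on a member, or on the sum or direction of a list, are named.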

Additional observations from a re-analysis of the deposited data

How the results depend on the processing

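Library scaling and the size of the change asked for were the choices that mattered most. With library sizes alone 2153 genes were called higher and 5902 lower, against 3886 and 3719 with TMM. Tested against a log2 fold change of 1, 172 were higher and 675 lower, and 0 members were higher: Daglb (0.67), Abhd6 (0.46) and Faah (0.42) did not pass. With library sizes alone 1 member was higher and 3 lower: Cnr1 (-0.33), Mgll (-0.43) and Napepld (-0.30) were called lower, Abhd6 (0.20) and Faah (0.16) lost their calls, and Dagla (-0.20) and Abhd12 (-0.17) turned negative. The stricter filter (50 counts in 2 libraries) called 1 member lower, Mgll (-0.23), and put Dagla at -0.0026. Length and GC offsets, without and with the replicate block, also called 1 member lower, Mgll (-0.36 in both), and turned Dagla (-0.16 in both) and Abhd12 (-0.10 and -0.11) negative.

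Without 1 library in turn, log2 fold changes ran from 0.34 to 0.60 for Abhd6, 0.58 to 0.79 for Daglb, 0.38 to 0.47 for Faah, -0.03 to 0.23 for Abhd12 (negative, at -0.0303, without IP 2) and -0.22 to 0.15 for Napepld (positive without IP 2, 0.15, and without input 4, 0.06). Those of Cnr1 stayed between -0.12 and -0.01 and those of Mgll between -0.18 and -0.15. The replicate block changed no member's call (Daglb 0.67, Mgll -0.17 with edgeR adjusted p = 0.0876) and called 4314 genes higher and 4037 lower. The numbers 2 and 4 are shared only as labels, and the differences between them correlated weakly across genes between IP and input (r = 0.19). DESeq2 1.42.0 and its size factors in edgeR, and no filter, changed no member's call or sign. With coding length the IP minus input difference in share was 7.58 points for Daglb against Dagla and -2.92 points for Mgll against Dagla. Each member had at least 695 counts in every library. How depth and the number of libraries limit these values was not compared.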

Other observations

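The tested genes whose profile over the 4 libraries lay closest to that of Cnr1 were Setd5, Ttbk1 and Ankrd33b, of 10680 others compared (mean 5 CPM or more). Their log2 CPM, centred over the libraries, differed from that of Cnr1 by a root mean square of 0.0021, 0.0064 and 0.011. With 4 libraries many genes can lie this close, and the likeness is given as a description only. Markers of striatal projection neurons, cells that also express Cnr1 strongly, were lower in IP: 0 of 10 rose and 8 fell. Among all genes tested 23.4% were called higher and 22.4% lower. The markers had a median log2 fold change of -0.78 and summed levels of 580 and 642 CPM in IP and 865 and 946 CPM in input. The call on Foxp1 (-0.28) was lost with length and GC offsets (-0.15, edgeR adjusted p = 0.188). The part of these markers in the value for Cnr1 was not tested.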
